A study of Mus musculus with 28 samples.

Results

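The ephrin, Eph, semaphorin and plexin genes are 51 of the 22238 protein-coding genes in the mm9 annotation, and they were chosen by symbol alone: 8 ephrins, 14 Eph receptors, 20 semaphorins and 9 plexins. H3K27ac, the acetylation of histone H3 at lysine 27, was mapped around them by ChIP-seq in NMuMG cells, a mouse mammary gland epithelial line, used here as a subclone, that undergoes epithelial to mesenchymal transition (EMT) under TGF-β. The 5 conditions, with 3 replicate libraries each, were cells without TGF-β (0h), cells given TGF-β at 2 ng/ml for 4h or 24h, and cells given the same TGF-β for 4h or 24h with UO126, an inhibitor of MEK, added at 25 µM 30 min earlier (ERKi 4h and ERKi 24h), which keeps ERK from being phosphorylated. The TGF-β cells without inhibitor received the solvent DMSO; whether the 0h cells did is not given in the labels, and no ERKi condition without TGF-β was included. A peak belonged to a member gene when its summit lay within 100 kb of a start site of that gene and no start site of another protein-coding gene was nearer. Peaks of the 15 libraries that overlapped were merged into regions, of which 479 of 89050 belonged to a member: 31 promoter regions, with the summit between 1000 bp upstream and 100 bp downstream of a start site, and 448 distal regions.

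Ephrins are ligands bound to the cell surface, those of the A class by a lipid anchor and those of the B class by a transmembrane domain, and they bind Eph receptors, a family of receptor tyrosine kinases, on neighbouring cells. Contact sends a signal into both cells, and the pair is known for cell sorting, boundary formation and repulsion, in epithelia as in the nervous system. Semaphorins are guidance ligands, secreted in class 3 and held at the membrane in classes 4 to 7; plexins are their receptors and regulate small GTPases and the cytoskeleton, with neuropilins as co-receptors for most class 3 semaphorins. H3K27ac marks active promoters and enhancers. ChIP-seq does not read which gene a region acts on, so the gene given for each region is the nearest one by start site, not a tested target.

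Among the distal regions described in the results, 5 are shown first, as the 300 bases centred on the summit, read from the plus strand of NCBIM37 (mm9). The regions of Efna1 and Plxna2 had the largest rises under TGF-β, that of Efna5 rose under TGF-β and was lower under ERKi, and those of Sema3c and Sema5a fell under TGF-β and were higher under ERKi. Capitals mark words searched on both strands: AP-1 (TGANTCA), ETS (CCGGAA), RUNX (TGTGGT), SMAD (CAGACA), TEAD (CATTCC) and FOX (TGTTTAC), where N is any base. Their positions are chr3:89093173-89093472 for Efna1, chr1:196663641-196663940 for Plxna2, chr17:62859057-62859356 for Efna5, chr5:17077851-17078150 for Sema3c and chr15:32193846-32194145 for Sema5a.
Efna1 -8.3 kb: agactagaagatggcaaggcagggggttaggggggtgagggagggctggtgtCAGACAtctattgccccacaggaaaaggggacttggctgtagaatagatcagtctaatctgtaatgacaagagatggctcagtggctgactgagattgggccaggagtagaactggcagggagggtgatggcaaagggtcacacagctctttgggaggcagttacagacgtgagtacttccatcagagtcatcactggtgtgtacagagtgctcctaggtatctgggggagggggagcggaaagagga
Plxna2 +32.9 kb: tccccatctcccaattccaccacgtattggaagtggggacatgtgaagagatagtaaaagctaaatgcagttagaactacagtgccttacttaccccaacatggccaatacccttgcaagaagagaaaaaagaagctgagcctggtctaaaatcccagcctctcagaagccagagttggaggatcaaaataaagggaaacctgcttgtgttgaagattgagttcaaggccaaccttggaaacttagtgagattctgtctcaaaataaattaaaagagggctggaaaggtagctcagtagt
Efna5 +96.8 kb: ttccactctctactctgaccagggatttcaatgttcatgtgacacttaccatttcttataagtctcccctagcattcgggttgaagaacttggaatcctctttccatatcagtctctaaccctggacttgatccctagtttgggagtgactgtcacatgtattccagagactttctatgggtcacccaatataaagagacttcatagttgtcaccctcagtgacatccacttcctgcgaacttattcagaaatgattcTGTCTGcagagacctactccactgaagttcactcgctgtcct
Sema3c -2.1 kb: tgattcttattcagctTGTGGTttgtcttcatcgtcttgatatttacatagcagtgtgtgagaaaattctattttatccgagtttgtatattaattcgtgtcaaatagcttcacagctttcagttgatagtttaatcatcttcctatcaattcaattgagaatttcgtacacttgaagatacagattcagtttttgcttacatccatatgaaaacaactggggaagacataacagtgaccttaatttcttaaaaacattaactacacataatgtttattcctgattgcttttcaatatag
Sema5a +19.1 kb: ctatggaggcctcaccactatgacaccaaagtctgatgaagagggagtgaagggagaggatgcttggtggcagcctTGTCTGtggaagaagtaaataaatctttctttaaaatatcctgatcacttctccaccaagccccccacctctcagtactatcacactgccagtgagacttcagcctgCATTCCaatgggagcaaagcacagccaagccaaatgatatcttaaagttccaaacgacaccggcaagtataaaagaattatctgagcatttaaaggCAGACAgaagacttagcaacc
The Efna1 and Efna5 windows held 1 SMAD word each, the Sema3c window 1 RUNX word, and the Sema5a window 2 SMAD words and 1 TEAD word, while none of the 6 words was in the Plxna2 window. A word is a description of the letters and not a bound site.

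The libraries held between 50445 and 69180 peaks, and between 249 and 344 distal peaks and 19 to 37 promoter peaks of each library belonged to the member genes. Member peaks made up 0.54% to 0.609% of the distal peaks of a library, with a mean of 0.586% ± 0.004 (SD, n = 3) at 0h and 0.56% ± 0.02 (SD, n = 3) at 24h. The cells carried peaks within 2500 bp of a start site of the epithelial genes Krt8, Krt18, Krt19, Cdh1 and Krt5 in 15 of 15 libraries and of Cldn7 in 10, but of Epcam, Krt14 and Trp63 in none, and the 10 leukocyte, endothelial, adipocyte and muscle markers had none in any library. The lists hold no read totals, so depth is known only from the peaks, and the height of a peak was taken as the pileup at its summit, the number of fragments covering it, solved from the listed fold enrichment and p-value.

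Promoter peaks divided the family. Of the 51 genes, 14 had a peak in a promoter in all 15 libraries, 14 in some of them and 23 in none. Within 2500 bp of a start site, 30 genes had a peak in all 15 libraries and 13 had none. Part of the 23 thus had a summit near a start site but outside the promoter window. Only the summit was placed, so such a peak can still cover the start site. The receptors Epha2, Epha4, Epha7, Ephb4 and Ephb6, the ligands Efna1, Efna5, Sema3c, Sema4a and Sema6d and the plexins Plxna3, Plxnb1, Plxnb2 and Plxnd1 were the 14 genes with a promoter summit in all libraries.

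**Figure D1:**
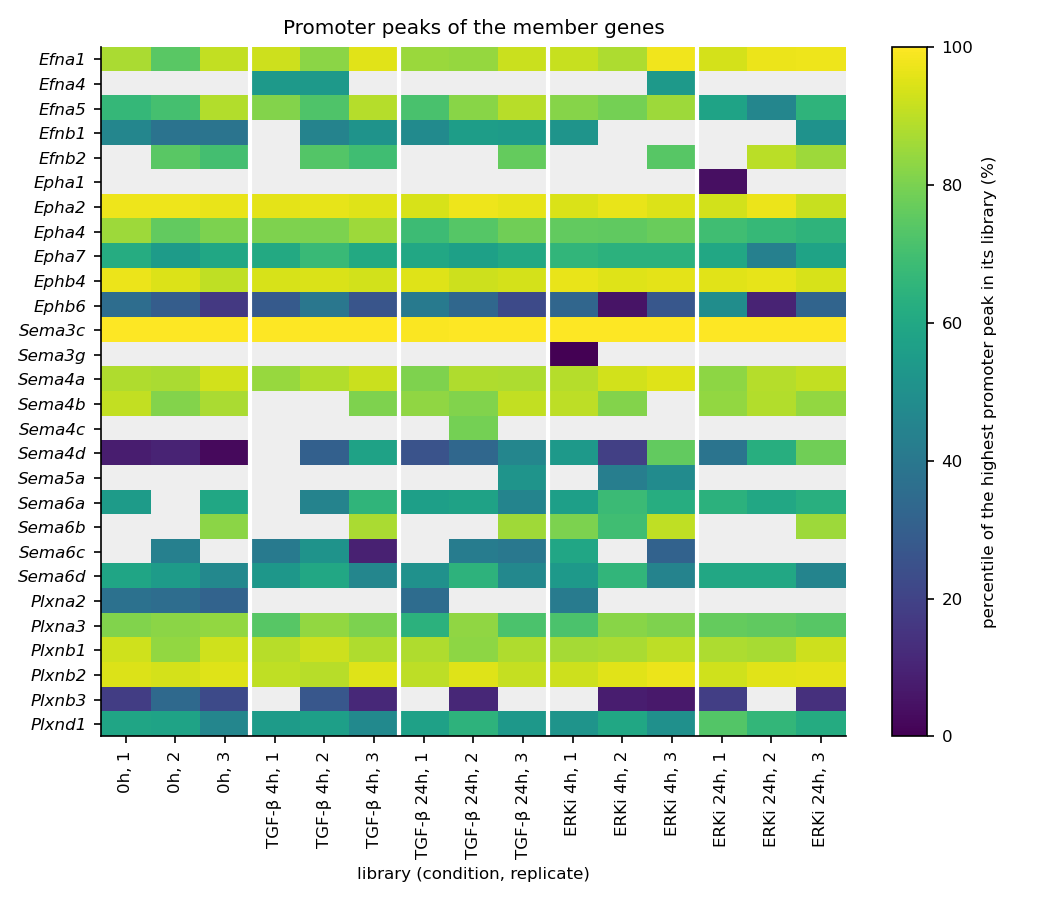
Percentile, by pileup, of the highest promoter peak of a gene among all peaks of that library (colour, 0 to 100%) for the 28 member genes with a promoter peak in at least 1 library (rows) in the 15 libraries (columns, condition and replicate); grey means no promoter peak. Sema3c, Epha2, Ephb4 and Plxnb2 sit near the top in every library, and Sema4d is darkest at 0h.

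Sema3c, a secreted class 3 semaphorin, had the highest promoter peak of the family, at a mean percentile of 99.8 ± 0.04 (SD, n = 3) among the peaks of the 0h libraries. Epha2, a receptor for A-class ephrins, stood at 97.3 ± 0.47, Plxnb2 at 94.4 ± 0.87 (a class B plexin) and Ephb4, a receptor for Efnb2, at 94.0 ± 3.29 in the same libraries. Sema4d, a transmembrane semaphorin and ligand of Plxnb1, stood at 6.79 ± 3.92 at 0h and at 35.0 ± 10.3 at 24h. Its highest promoter peak was thus among the weakest of the marked promoters before TGF-β. In 4h replicate 1 no Sema4d peak had its summit inside a promoter, although the merged promoter regions held a peak in that library too. Epha5, Epha8, Epha10 and Sema5b had no region at all.

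Distal peaks were more frequent than promoter peaks at most members: 47 genes had a distal peak in some library and 35 had one in every library. Of the 448 distal regions, 233 had their summit in an intron, 183 between genes, 18 in a UTR and 14 in another part of an exon. Sema3e, a class 3 semaphorin that binds Plxnd1 directly, had the most, with a mean of 22.8 distal peaks over the 15 libraries and a range of 18 to 32. Among the other subfamilies the gene with the most was Sema4b, with a mean of 19.7 (16 to 25), Epha4, with 18.8 (14 to 29), Sema6a, with 16.2 (12 to 20), Plxna2, with 14.1 (10 to 19), and Efna5, with 13.5 (11 to 17). The means were lower in Efnb2 (7.33, range 4 to 10), Plxnb2 (5.8, range 4 to 8), Plxnd1 (5.53, range 4 to 8) and Ephb1 (5.2, range 2 to 7). Adjacent peaks of the same acetylated stretch count separately, so these are numbers of summits and not of enhancers.

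**Figure D2:**
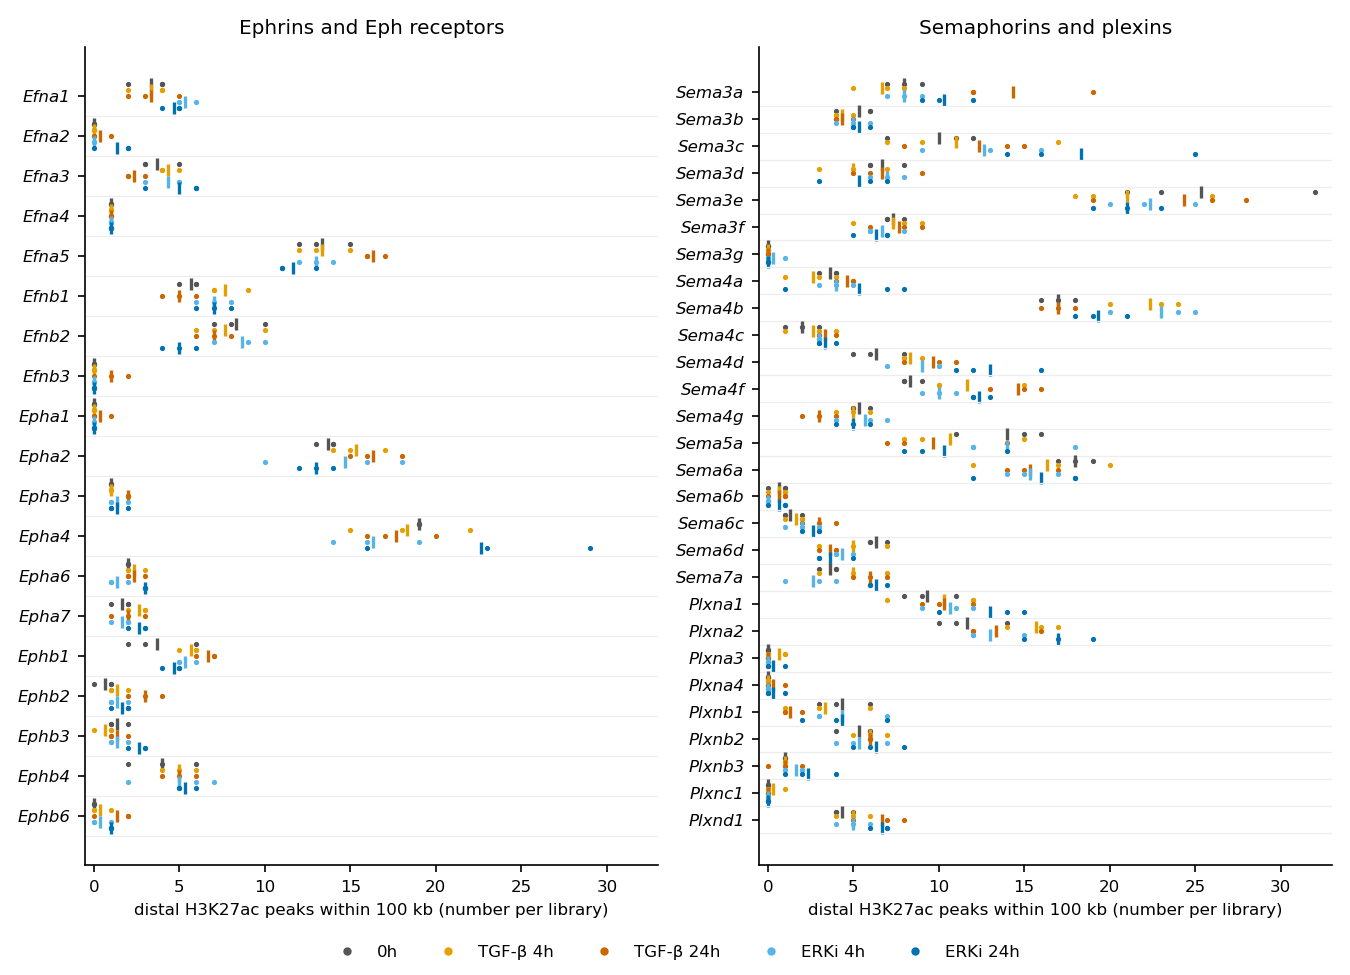
Number of distal H3K27ac peaks within 100 kb (x axis, per library) for the 47 member genes with at least 1 (rows); points are libraries, short bars the mean of 3, colours the 5 conditions. Sema3a and Sema4f lie farther right at 24h than at 0h, and Efna5 at ERKi 24h lies left of TGF-β 24h.

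The first comparison asked which member genes gained or lost distal peaks. After 24h of TGF-β, 7 of 44 member genes with a distal peak at either time had more of them in every 24h library than in any 0h library, which is 15.9% against 13.0% of all 13310 protein-coding genes, and 3 had fewer, 6.82% against 4.31%. Sema3a, a secreted semaphorin known for repelling axons, had 7, 8 and 9 distal peaks at 0h and 12, 12 and 19 at 24h. Sema4f, a transmembrane semaphorin, had 8, 9 and 8 at 0h, 10, 15 and 10 at 4h and 15, 16 and 13 at 24h. These were the widest gaps, and the others with more were Efna5, Epha2, Epha3, Ephb2 and Sema7a. Plxnb1, the receptor of Sema4d, had 3, 4 and 6 at 0h and 1, 2 and 1 at 24h. Sema4g and Sema6d were the other genes with fewer. The two-sided exact permutation test of 3 against 3 libraries gave p = 0.1 for each of these genes, the smallest p it can give.

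At 4h against 0h, Efnb1, Sema4b and Sema4f had more distal peaks without overlap, 3 of 42 genes or 7.14%, against 4.76% of all genes, and 0 had fewer, against 1.2%. Sema4b, another class 4 semaphorin, had 16, 18 and 17 at 0h, 24, 20 and 23 at 4h and 17, 16 and 18 at 24h, so its numbers at 24h lay in the 0h range again. Under ERKi at 24h, Efna5, Epha2 and Ephb1 had fewer distal peaks than with DMSO, 3 of 45 genes or 6.67%, against 3.2% of all genes, and 0 had more, against 4.13%. Efna5, an A-class ephrin, had 17, 16 and 16 with DMSO and 11, 11 and 13 with ERKi. At 4h under ERKi, 1 of 43 genes, Efna1, had more, 2.33% against 1.58%, with 6, 5 and 5 distal peaks against 4, 2 and 4, and 0 had fewer, against 1.12%.

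Heights could be compared where a region had a peak in all 15 libraries. This held for 131 of the 479 member regions, 27.3%, against 30.2% of all regions, and they comprised 18 promoter and 113 distal regions of 37 genes: 22 of Eph receptors, 22 of ephrins, 62 of semaphorins and 25 of plexins. The other 348 regions lacked a value in some library and were left out of this fit, so their heights were not tested in it. Pileups were scaled to the same median over the 26934 such regions in each library, and limma gave log2 differences with Benjamini-Hochberg adjusted p-values over all 26934. In all, 31 member regions of 16 genes passed an adjusted p of 0.05 in at least 1 comparison. The share of all regions is given below for each comparison and not for this total, so the total alone says nothing particular to the family. Because libraries of one replicate number deviated together, the fit was repeated with the number as a block. For the member regions its value is given where it changes a call or a count. All 42 called values of single regions kept their direction and call with the block. The pathway list was counted without the block only. The fits without 1 library had no block either, and overlap of groups was judged without the pairing by number.

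After 24h of TGF-β, 13 of the 131 member regions were higher than at 0h, 9.92%, against 10.3% of all regions, and 11 were lower, 8.4%, against 7.85%. The count of 11 fell to 6 without 0h replicate 3 and to 6 without 24h replicate 1. The members moved about as often as the rest of the genome in both directions, and their median log2 difference was -0.015, against -0.067 over all regions. The ephrins had 2 higher and 0 lower regions, the Eph receptors 1 and 2, the semaphorins 7 and 8 and the plexins 3 and 1. With the block, 21 member regions were higher and 29 lower, against 17.6% and 20.1% of all regions. In 22 of the 24 called regions the 0h and 24h libraries did not overlap. The regions were called from these same libraries, so this describes their values and is no separate support.

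**Figure D3:**
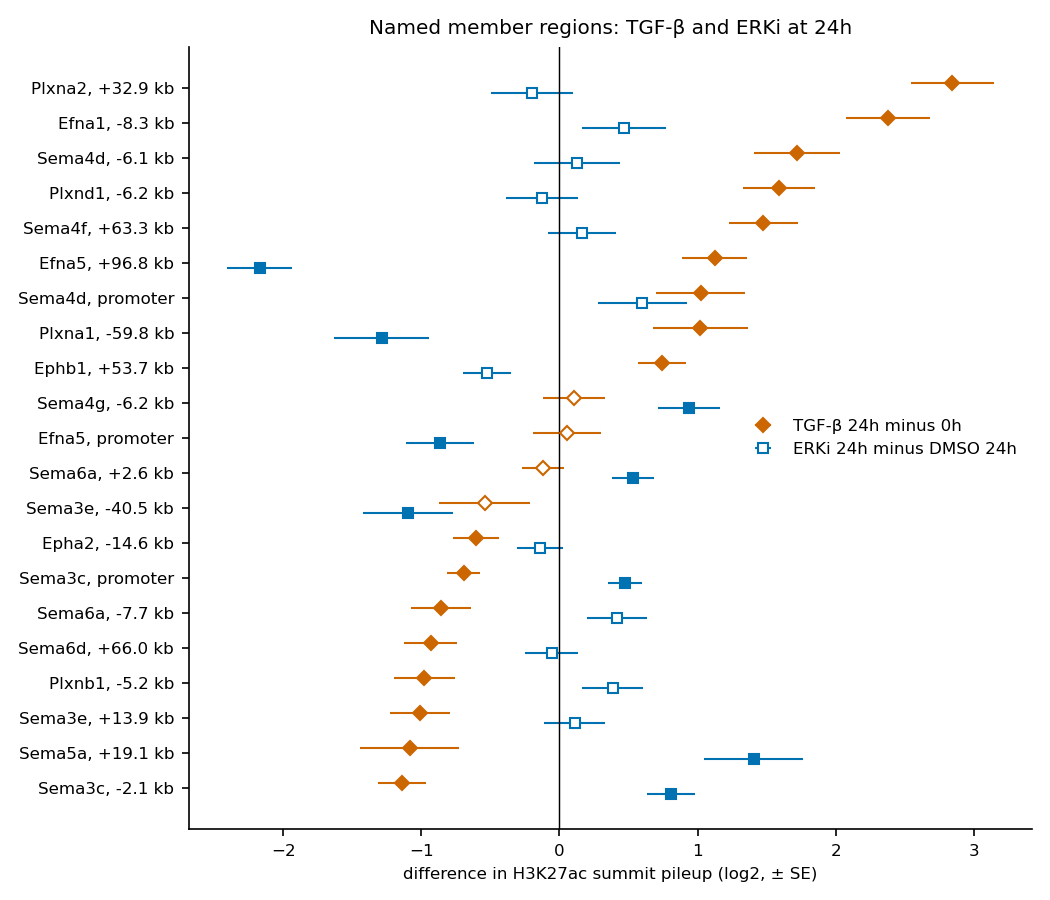
Difference in scaled summit pileup (x axis, log2, error bars ± SE of the fit) of 21 named member regions (rows, gene and promoter or distance from the nearest start site of the gene) between TGF-β 24h and 0h (diamonds) and between ERKi 24h and DMSO 24h (squares); filled symbols passed an adjusted p of 0.05. Plxna2 and Efna1 rise most, to 2.85 and 2.38, and Efna5 +96.8 kb falls most under ERKi, to -2.17; both differences use the same TGF-β 24h libraries.

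Among the ligands, the largest rise was at Efna1, the A-class ephrin best known as ligand of Epha2. Its region 8.3 kb upstream of the start site (chr3:89091726-89093797, between genes) had a scaled pileup of 14.2, 22.4 and 21.9 fragments at 0h, 55.9, 62.4 and 78.3 at 4h and 111, 63.3 and 139 at 24h. Each TGF-β library was above each 0h library, already at 4h. The rise was 5.20-fold at 24h (log2 difference 2.38 ± 0.30 SE, adjusted p = 3.74e-05) and 3.40-fold at 4h (1.77 ± 0.30, adjusted p = 0.00218). Under ERKi the values were 66.4, 66.9 and 116 at 4h and 134, 108 and 179 at 24h, with log2 differences from DMSO of 0.30 and 0.47 that did not pass (adjusted p = 1.0 and 0.434). The rise under TGF-β was therefore also seen with the inhibitor present.

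Efna5 behaved otherwise. The gene spans chr17:62953533-63230666 on the minus strand, and the start site nearest the regions below lies inside it, near its 3' end. The region 96.8 kb downstream of that start site (chr17:62858888-62860488, between genes) had 25.4, 37.3 and 39.4 fragments at 0h, 34.9, 35.5 and 34.0 at 4h and 63.7, 72.7 and 83.0 at 24h. It lay within the 0h range at 4h and above it at 24h, by 2.18-fold (1.12 ± 0.24, adjusted p = 0.00252). With ERKi it had 19.5, 21.5 and 17.4 at 4h and 12.0, 19.5 and 18.0 at 24h, below every 0h library. At 24h ERKi was lower than DMSO by 4.50-fold (-2.17 ± 0.24, adjusted p = 1e-04). At 4h it was -0.84 (adjusted p = 0.227, and 0.0079 with the block), and the change of the ERKi difference from 4h to 24h was -1.33 (adjusted p = 0.404, and 0.00489 with the block). The promoter region at this internal Efna5 start site was also lower under ERKi at 24h, with 83.8, 75.0 and 134 fragments with DMSO and 48.2, 46.9 and 61.7 with ERKi (-0.87 ± 0.25, adjusted p = 0.0387). That call was lost without 4h replicate 1, 24h replicate 1, 24h replicate 3, ERKi 24h replicate 1 or ERKi 24h replicate 2, with an adjusted p of up to 0.162. A region 1.4 kb upstream of the same start site, in an intron of Efna5, differed by -0.87 at 24h as well (adjusted p = 0.0193, lost without 24h replicate 1, 24h replicate 3, ERKi 24h replicate 1 or ERKi 24h replicate 3, up to 0.0875), and by -0.97 at 4h (adjusted p = 0.0802, and 6.82e-04 with the block).

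Of the other ephrins, Efnb2, the ligand of Ephb4, had 4 regions with a value in every library and none passed at 24h. The largest of these differences, at 33.2 kb, was -0.72 ± 0.25 (adjusted p = 0.0568, and 1.28e-04 with the block), and with ERKi this region differed from DMSO by 0.49 (adjusted p = 0.289, and 0.00819 with the block).

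Semaphorins moved in both directions. At Sema4d, a region 6.1 kb upstream of the nearest start site (chr13:51857311-51859957, in an intron of Sema4d) had 30.6, 29.8 and 38.3 fragments at 0h, 81.2, 72.2 and 112 at 4h and 130, 62.1 and 154 at 24h. All 4h and 24h libraries were above all 0h libraries, by 2.66-fold at 4h (1.41 ± 0.31, adjusted p = 0.0129, lost without 0h replicate 1, 0h replicate 2 or 4h replicate 3, up to 0.0833) and 3.29-fold at 24h (1.72 ± 0.31, adjusted p = 7.46e-04). The ERKi libraries, at 92.8, 65.6 and 117 at 4h and 122, 86.0 and 155 at 24h, overlapped the DMSO libraries. Sema4d spans chr13:51796615-51889116 on the minus strand, and its 2 called promoter regions lie at start sites inside the gene. The promoter region with its summit at 51844075 rose from 21.6, 19.9 and 27.4 at 0h to 43.6, 35.2 and 64.2 at 24h (1.02 ± 0.32, adjusted p = 0.033), a call lost without 0h replicate 1, 0h replicate 2, 24h replicate 1 or 24h replicate 3 (adjusted p up to 0.15). The promoter region at another internal Sema4d start site rose by 0.87 (adjusted p = 0.0431), a call lost without 0h replicate 1 or 3, 4h replicate 2, 24h replicate 2 or 3, ERKi 4h replicate 1 or ERKi 24h replicate 2 (up to 0.212).

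At Sema4f, 4 of 5 regions with a value in every library were higher at 24h, all downstream of the nearest start site, which lies inside the gene. The farthest, at 63.3 kb, had 18.6, 19.9 and 30.6 fragments at 0h and 53.2, 62.1 and 74.1 at 24h (1.48 ± 0.25, adjusted p = 3.97e-04). The others, at 54.3, 38.2 and 8.7 kb, rose by 1.08, 0.89 and 0.70 on the log2 scale (adjusted p = 0.00482, 0.00471 and 0.0495). The call at 8.7 kb, where the groups overlapped, held without 0h replicate 1, 4h replicate 2, 24h replicate 2, ERKi 4h replicate 2 or ERKi 24h replicate 3 and was lost without any 1 of the other 10 libraries (up to 0.214). The region at 38.2 kb was higher at 4h as well, by 0.84 (adjusted p = 0.0244, lost without any 0h library, 4h replicate 1 or 4h replicate 3, up to 0.134). With ERKi at 24h, none of the 4 differed from DMSO past the threshold, with log2 differences of -0.52 to 0.16. With the block, the lowest of these, at 54.3 kb, passed (adjusted p = 0.00629).

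**Figure D4:**
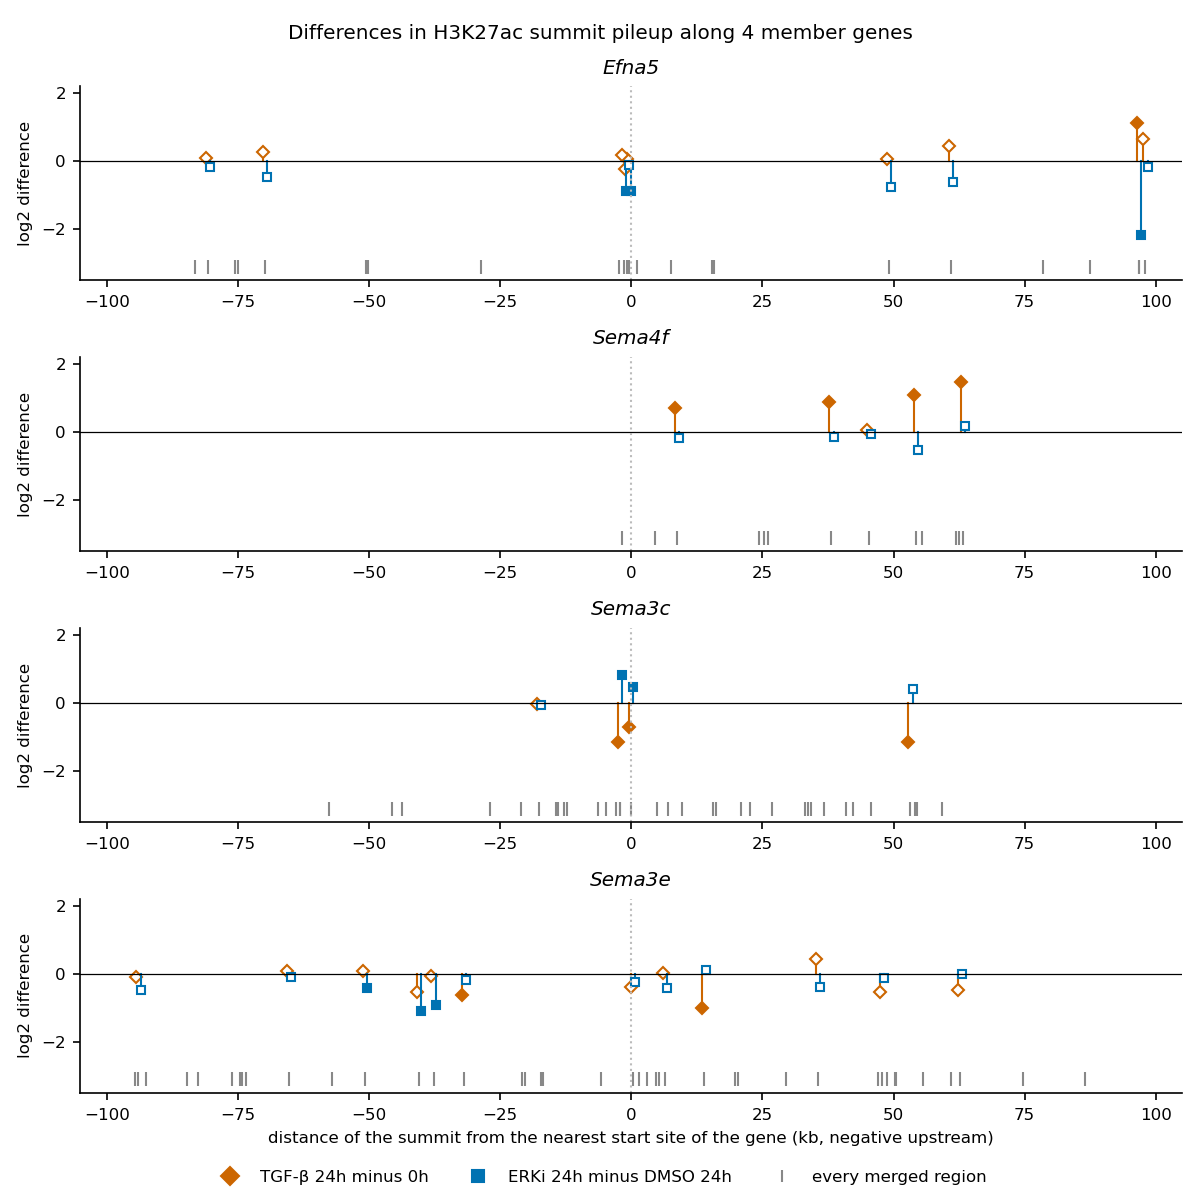
Log2 difference in scaled summit pileup (y axis) of the regions with a value in all 15 libraries against the distance from the nearest start site of the gene (x axis, kb, negative upstream) for Efna5, Sema4f, Sema3c and Sema3e; diamonds are TGF-β 24h minus 0h, squares ERKi 24h minus DMSO 24h, filled where the adjusted p was below 0.05, and ticks show every merged region. At Sema4f 4 regions rise under TGF-β, and at Sema3c 3 regions fall, 2 of which are higher under ERKi.

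Sema3c fell. Its promoter region (chr5:17079270-17081863), the highest promoter of the family, had 689, 525 and 575 fragments at 0h, 425, 470 and 404 at 4h and 342, 409 and 351 at 24h. It was lower at 4h (-0.46 ± 0.12, adjusted p = 0.0438) and at 24h (-0.69 ± 0.12, adjusted p = 6.06e-04), in each case without overlap. The 4h call held without 0h replicate 2, 4h replicate 2, 24h replicate 2 or ERKi 24h replicate 2 and was lost without any 1 of the other 11 libraries (adjusted p up to 0.253). With ERKi at 24h it had 498, 524 and 506, above the DMSO libraries by 0.48 ± 0.12 (adjusted p = 0.0234). That call was lost without any 1 of the 3 ERKi 24h libraries, 24h replicate 1 or 24h replicate 3 (adjusted p up to 0.0992). The neighbouring region 2.1 kb upstream (chr5:17077761-17079106, between genes) had 352, 229 and 248 at 0h, 116, 123 and 131 at 24h and 199, 260 and 194 with ERKi at 24h. It fell by 1.14 on the log2 scale (SE 0.18, adjusted p = 1.97e-04) and was higher by 0.81 with ERKi (SE 0.18, adjusted p = 0.00894). The change of that ERKi difference from 4h to 24h was 0.68 (adjusted p = 0.698, and 0.048 with the block). Another region lay 53.2 kb downstream of a start site inside Sema3c, past the 3' end of the gene. It fell by 1.14 on the log2 scale at 24h (adjusted p = 0.019, lost without 0h replicate 2, 0h replicate 3 or 24h replicate 1, up to 0.112). Under ERKi it differed by 0.42 (adjusted p = 0.537).

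Sema5a, a semaphorin with thrombospondin repeats, was also lower at 24h and higher with ERKi, at lower pileup. Its region 19.1 kb downstream of a start site (chr15:32193228-32194820, in an intron) had 26.1, 53.4 and 55.8 fragments at 0h and 32.3, 44.1 and 58.5 at 4h. The 24h libraries had 15.7, 18.8 and 27.7, and the ERKi 24h libraries 39.1, 54.7 and 71.1. The 0h and 24h libraries overlapped, and the log2 difference was -1.09 ± 0.36 (adjusted p = 0.0436), a call lost without 0h replicate 2, 0h replicate 3, 4h replicate 2, 24h replicate 1, 24h replicate 2 or ERKi 24h replicate 2 (adjusted p up to 0.176). ERKi and DMSO at 24h did not overlap and differed by 1.41 ± 0.36 (adjusted p = 0.0225), lost without 24h replicate 1, 24h replicate 2, ERKi 24h replicate 2 or ERKi 24h replicate 3 (adjusted p up to 0.102). Since each gap at 24h was set against the same 3 DMSO libraries, the TGF-β and ERKi differences of a region are not independent.

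Sema3e, with 12 regions in all libraries, held regions of separate kinds. At 13.9 kb downstream, in an intron, the pileup was 91.7, 88.2 and 127 at 0h and 41.9, 63.3 and 47.4 at 24h (-1.01 ± 0.22, adjusted p = 0.00309), and 48.9, 67.7 and 47.7 with ERKi, so the lower level held with the inhibitor. At 31.8 kb upstream the 24h difference was -0.62 (adjusted p = 0.0202, lost without 0h replicate 1, 0h replicate 3 or 24h replicate 1, up to 0.102). At 37.7 kb upstream the order differed. The 0h libraries had 261, 308 and 353 fragments, the 4h libraries 164, 176 and 204, the 24h libraries 230, 302 and 354, and the ERKi 24h libraries 112, 181 and 175. This region was lower at 4h (-0.76 ± 0.19, adjusted p = 0.0297, lost without 0h replicate 2, 0h replicate 3 or any 4h library, up to 0.14), overlapped the 0h range at 24h, and was lower with ERKi than with DMSO at 24h (-0.93 ± 0.19, adjusted p = 0.00625). At 4h its ERKi difference was -0.50 (adjusted p = 0.622, and 0.00407 with the block). The regions 40.5 and 50.7 kb upstream were lower with ERKi at 24h too, by -1.10 (adjusted p = 0.0488) and -0.42 (adjusted p = 0.0452). The first of these calls was lost without any 1 of 9 libraries (0h replicate 2, 4h replicate 2, 24h replicates 2 and 3, all 3 of ERKi 4h, and ERKi 24h replicates 1 and 3), with an adjusted p up to 0.194. The second held without 0h replicate 1, 0h replicate 3 or 4h replicate 3 and was lost without any 1 of the other 12 libraries (up to 0.141).

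Sema6d and Sema4g each had 1 region past the threshold in the 24h comparisons, and Sema6a had 2. Sema6d, a ligand of class A plexins, had 130, 127 and 142 fragments at 0h and 75.9, 69.2 and 64.2 at 24h in a region 66.0 kb downstream (-0.93 ± 0.19, adjusted p = 0.00211). That distance is from a start site inside Sema6d, and the region lies past the 3' end of the gene. Sema6a, also a class A plexin ligand, had 80.6, 90.7 and 90.8 at 0h and 37.5, 52.7 and 56.3 at 24h in an intronic region at -7.7 kb (-0.86 ± 0.22, adjusted p = 0.00941), a call lost without 24h replicate 1 (adjusted p = 0.066). Both fell without overlap. A second Sema6a region, at 2.6 kb, had 89.9, 84.4 and 102 with DMSO at 24h and 139, 129 and 131 with ERKi (0.53 ± 0.15, adjusted p = 0.0387), lost without 4h replicate 1, 24h replicate 1, 24h replicate 2 or any ERKi 24h library (adjusted p up to 0.119). Sema4g had 59.4, 49.2 and 72.2 with DMSO at 24h and 108, 102 and 135 with ERKi at -6.2 kb (0.94 ± 0.22, adjusted p = 0.0156), in a UTR of the neighbouring gene Fam178a and lost without 24h replicate 1, 24h replicate 2 or ERKi 24h replicate 3 (adjusted p up to 0.0793). For Sema4b, with 9 regions in all libraries, none passed in these 24h comparisons, and the differences from 0h ran from -0.25 to 0.35, the highest of which, at -20.6 kb, passed with the block (adjusted p = 0.0205). With ERKi the region at -26.0 kb differed by 0.47 (adjusted p = 0.252, and 0.00174 with the block).

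Among the receptors, Plxna2, a plexin for class 6 and, with neuropilins, class 3 semaphorins, had the largest rise of the whole family. The gene spans chr1:196446023-196643063 on the plus strand, and the start site nearest the region below lies inside it, near its 3' end. The Plxna2 region, 32.9 kb downstream of that start site and past the 3' end of the gene, was chr1:196662687-196664825, between genes. It had 11.2, 19.9 and 16.4 fragments at 0h, 55.0, 41.6 and 62.2 at 4h and 115, 86.7 and 135 at 24h. The groups did not overlap at either time, and the rise was 3.39-fold at 4h (1.76 ± 0.30, adjusted p = 0.00195) and 7.18-fold at 24h (2.85 ± 0.30, adjusted p = 6.32e-06). With ERKi it had 58.6, 32.8 and 71.8 at 4h and 102, 78.1 and 113 at 24h, overlapping the DMSO libraries at both times. As at Efna1 and Sema4d, the rise was present with the inhibitor.

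Plxnd1, the receptor of Sema3e, rose in an intronic region 6.2 kb upstream of the nearest start site (chr6:115925138-115926484), from 18.6, 18.6 and 23.0 at 0h to 58.5, 58.6 and 63.3 at 24h (3.00-fold, 1.59 ± 0.26, adjusted p = 3.43e-04). Its 4h libraries, at 19.2, 30.6 and 38.7, overlapped those at 0h and lay below those at 24h, and its ERKi 24h libraries, at 60.2, 40.4 and 68.8, overlapped those with DMSO. Plxna1, which signals for class 3 semaphorins together with neuropilins, had 17.9, 24.9 and 38.3 at 0h, 41.0, 53.9 and 64.2 at 24h and 14.3, 20.8 and 32.8 with ERKi at 24h in a region 59.8 kb upstream, inside an intron of Chchd6. It rose by 1.02 ± 0.34 (adjusted p = 0.0475) and was lower with ERKi by -1.29 ± 0.34 (adjusted p = 0.0285), while the ERKi libraries overlapped those with DMSO at 4h. The change of the ERKi difference from 4h to 24h was -1.29 (adjusted p = 0.728, and 0.0038 with the block). The rise was lost without any 1 of 9 libraries (0h replicates 1 and 2, 4h replicates 1 and 2, all 3 of 24h, ERKi 4h replicate 2 and ERKi 24h replicate 2; adjusted p up to 0.217), and the ERKi call without 24h replicate 2, 24h replicate 3, ERKi 24h replicate 1 or ERKi 24h replicate 2 (up to 0.132). Plxnb1 fell at -5.2 kb, inside an intron of Ccdc51, from 80.6, 89.5 and 91.9 to 37.5, 43.4 and 53.4 (-0.98 ± 0.22, adjusted p = 0.00427). The 5 regions of Plxnb2 with a value in every library differed by -0.32 to 0.08 at 24h, and none passed. With the block, those at 0.7 and 2.1 kb passed as lower at 24h (adjusted p = 0.0168 and 0.0419), and those at 2.1 and 0.3 kb as higher with ERKi (0.43 and 0.28, adjusted p = 0.01 and 0.0331).

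The Eph receptors had 3 of 22 regions past the threshold at 24h of TGF-β and 0 under ERKi at 24h. Of all regions, 10.3% were higher and 7.85% lower at 24h of TGF-β. Under ERKi at 24h these shares were 3.53% and 3.98%. With 22 regions, the counts say nothing particular to the receptors. Ephb1, a receptor for B-class ephrins, rose in an intronic region 53.7 kb downstream, from 78.3, 88.2 and 101 at 0h to 133, 148 and 167 at 24h (1.68-fold, 0.74 ± 0.17, adjusted p = 0.00549), and had 88.8, 96.4 and 129 with ERKi at 24h (-0.52 ± 0.17, adjusted p = 0.0781, and 0.00195 with the block). Epha2 fell in a region 14.6 kb upstream, from 169, 174 and 198 to 120, 102 and 136 (-0.60 ± 0.17, adjusted p = 0.0154), a call lost without 0h replicate 3 or 24h replicate 2 (adjusted p up to 0.0695), and in the next region at -13.6 kb (-0.57, adjusted p = 0.0265, lost without 0h replicate 1, 0h replicate 3, 24h replicate 1 or 24h replicate 2, up to 0.113). Epha2 had more distal peaks at 24h than at 0h, as given above, while these regions were lower: the number and the height of its peaks did not move together. The 7 regions of Epha4 with a value in every library differed by -0.37 to 0.17 at 24h, and none passed; the lowest, at -0.8 kb, did with the block (adjusted p = 0.0277).

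**Figure D5:**
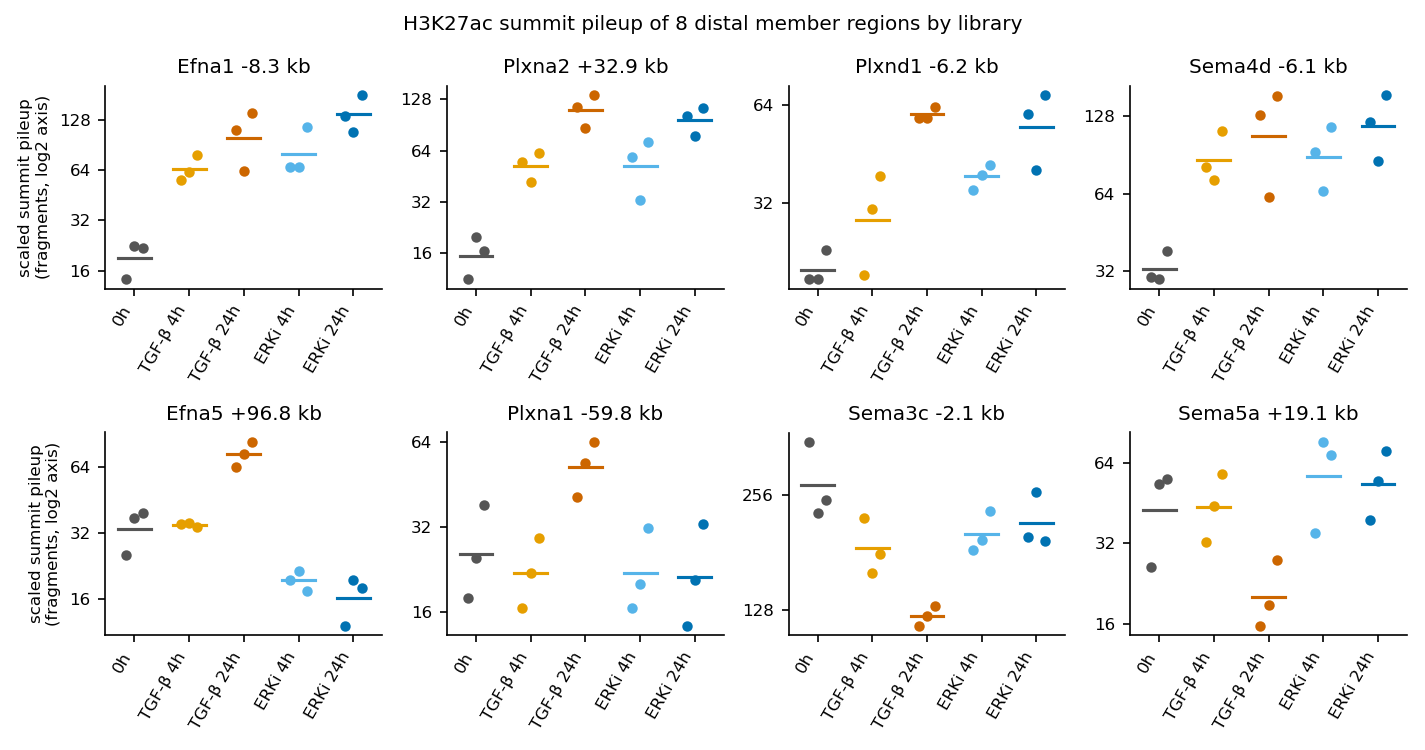
Scaled summit pileup (y axis, fragments, log2 axis) of 8 distal member regions in the 5 conditions (x axis); points are libraries and bars the geometric mean of 3. In the upper row, Efna1, Plxna2, Plxnd1 and Sema4d rise under TGF-β with or without ERKi; in the lower row, Efna5 and Plxna1 are lower and Sema3c and Sema5a higher in ERKi 24h than in TGF-β 24h.

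At 4h of TGF-β, 4 member regions were higher than at 0h, 3.05%, against 3.62% of all regions, and 2 were lower, 1.53%, against 0.197%. The 4 were those named above at Efna1, Plxna2, Sema4d and Sema4f, and the 2 were the Sema3c promoter and the Sema3e region 37.7 kb upstream. With the block 10 were higher and 14 lower, against 11.8% and 5.87% of all regions. The 4 higher came to 2 without 0h replicate 1, 0h replicate 2 or 4h replicate 3, and the 2 lower to 0 without 0h replicate 3, 4h replicate 1 or 4h replicate 3, and to 1 without any 1 of 10 other libraries. The count of 6 came to 3 without any 1 of the 0h libraries or without 4h replicate 1, and to 2 without 4h replicate 3.

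Under ERKi at 24h, 5 of the 131 regions were higher than with DMSO, 3.82%, against 3.53% of all regions, and 7 were lower, 5.34%, against 3.98%. The 5 higher were regions of semaphorins (Sema3c, Sema4g, Sema5a and Sema6a), and the 7 lower comprised 3 of Efna5, 3 of Sema3e and 1 of Plxna1. With the block, 19 were higher and 20 lower, against 15.0% and 13.1%. The count of 12 fell to between 5 and 7 without any 1 of the 24h and ERKi 24h libraries. The 5 higher came to 1 without 24h replicate 1 or ERKi 24h replicate 3, to 2 without 24h replicate 2 and to 3 without ERKi 24h replicate 1 or 2. The 7 lower came to 2 without 24h replicate 3 or ERKi 24h replicate 1, and to 4 without 24h replicate 1, 24h replicate 2 or ERKi 24h replicate 2. Under ERKi at 4h, 0 member regions were called by limma in either direction, against 0.00743% of all regions higher and 0.26% lower. At an unadjusted p of 0.05, 2 were higher and 9 lower, against 1.62% and 4.05% of all regions, and with the block 1 was higher and 8 were lower, against 0.847% and 3.47% of all regions. The ERKi difference at 24h minus that at 4h passed for 0 member regions, against 0.0% of all regions, with 4 higher and 4 lower at an unadjusted p of 0.05, against 3.0% and 2.63% of all regions. With the block, 4 were higher and 4 lower, against 2.56% and 1.85%.

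These heights carry a limit that the fold enrichment shows. The local background that the peak caller set around a summit, solved from the same columns, moved in the same direction as the pileup for 17 of 17 named values between 24h and 0h and for 9 of 9 between ERKi and DMSO at 24h. The background was derived from the pileup that selected these regions, so part of this agreement is built in. At Ephb1 it had a mean of 10.1 fragments at 0h and 26.4 at 24h, and the fold enrichment there, 9.25, 7.37 and 7.77 at 0h, was 5.50, 5.82 and 5.24 at 24h, lower by 0.55 on the log2 scale (adjusted p = 0.0189). With fold enrichment in place of pileup, 8 member regions passed at 24h and 1 under ERKi at 24h, and 21 of the 42 called values, over all comparisons, changed sign. The 8 were not all regions called by pileup. Among the 24h calls by pileup, only those of Plxna2, Plxnd1 and a distal region of Sema3c (-0.62, adjusted p = 0.0483) were kept. A region of Sema4f passed in the opposite direction (-0.49, adjusted p = 0.0407), as Ephb1 did. The results above are thus differences in fragments at the summit, and not in enrichment over the surroundings.

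Regions without a peak in some libraries were compared by their calls. Of 378 member regions with a peak at 0h or 24h, 19 were called in all 3 of 24h and in none of 0h, 5.03%, against 5.98% of all regions, and 14 the reverse, 3.7%, against 2.52%. The 19 belonged to 14 genes. Sema3a held 4 of them, 73.0, 72.5, 40.0 and 31.8 kb upstream of the nearest start site and in its introns, and Sema4a and Sema4f held 2 each. Epha3, Ephb1, Plxna2, Plxnd1, Sema3c, Sema3e, Sema4b, Sema4c, Sema6a, Sema6c and Sema7a had 1 each. The 14 lost belonged to 11 genes, with 2 at each of Sema4b, Sema4g and Sema5a and 1 at each of Efna3, Efnb1, Plxna1, Plxna2, Plxnb1, Sema3a, Sema6a and Sema6d. Plxna2, Sema3a, Sema4b and Sema6a stood on both lists, each with separate regions. Some of these were close together and held high peaks. At Sema4b a region lost at -11.5 kb had percentiles of 80.5, 60.5 and 83.9 at 0h. The one gained at -10.1 kb had 85.2, 68.3 and 94.0 at 24h. At Plxna2 the gained region was at 27.6 kb and the lost one at 30.7 kb. Whether such pairs reflect signal that moved or a stretch split differently into peaks was not tested.

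Under ERKi at 24h, 9 of 404 member regions were called in all 3 ERKi libraries and in none with DMSO, 2.23%, against 1.73% of all regions, and 7 the reverse, 1.73%, against 1.41%. Of the 7, 4 were at Sema3a and 1 each at Epha2, Epha3 and Sema4f. Of the 19 regions gained at 24h, 4 had no peak in any ERKi 24h library, 3 at Sema3a and the 1 at Epha3, 21.1%, against 13.3% of the 4376 regions gained in all. A further 8 had a peak in all 3, 42.1%, against 45.8%. The 9 gained with ERKi were at Plxna2, with 2, and at Efna3, Efnb1, Ephb3, Ephb4, Plxna1, Plxnb1 and Sema4d. Of the 14 regions lost at 24h, 4 had a peak in all 3 ERKi 24h libraries, at Efna3, Efnb1, Plxna1 and Plxna2, 28.6%, against 16.8% of the 1845 regions lost in all, and 3 in none, 21.4%, against 43.7%. At 4h of TGF-β, 6 of 344 member regions were gained, 1.74%, against 1.65%, and 3 were lost, 0.872%, against 0.565%. Under ERKi at 4h, 1 of 343 was gained, 0.292%, against 0.316%, and 6 were lost, 1.75%, against 0.449%.

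The words marked in the sequences were counted in the 300 bases around each summit. Of the 113 distal member regions with a peak in all libraries, the SMAD word was in 25.7%, against 25.2% of all 20645 such distal regions, the RUNX word in 17.7% against 18.0%, the TEAD word in 20.4% against 15.1%, the AP-1 word in 6.19% against 7.53%, the FOX word in 4.42% against 3.5% and the ETS word in 3.54% against 8.13%. Of the 11 distal member regions higher at 24h, 4 held the SMAD word, 3 the RUNX word, 2 the TEAD word and 1 the FOX word, where 31.0%, 20.6%, 17.5% and 4.71% of all 2652 distal regions higher at 24h held them. Of the 10 lower, 2, 3, 2 and 0 held them, against 26.8%, 21.7%, 17.5% and 3.52% of all 1933 lower. The AP-1 and ETS words were in none of the 21, against 9.46% and 3.7% of the 2652 and 8.12% and 4.4% of the 1933. In the 300 bases around the 208 start sites of the member genes, the ETS word was in 5.29%, against 17.1% of all 70021 start sites of protein-coding genes, and the SMAD word in 18.3% against 19.9%. These shares were not tested.

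Other genes of the pathways were counted from a list of 41 co-receptors, effectors and the ephrin sheddase Adam10, of which 30 had a region in all libraries. After 24h of TGF-β, 12 of the 30 had a region past the threshold that was higher and 7 one that was lower, with 5 genes in both counts (Met, Vav2, Vav3, Chn2 and Kalrn). By regions, 21 of 110 were higher, 19.1%, against 10.3% of all regions, and 12 lower, 10.9%, against 7.85%. The 21 came to 12 without 0h replicate 1 and 8 without 24h replicate 3, and the 12 to 7 without 0h replicate 3 and 5 without 24h replicate 1. Nrp2, a neuropilin co-receptor of class 3 semaphorins, rose by 0.85 ± 0.22 at 18.0 kb (adjusted p = 0.00916), and Met, a receptor tyrosine kinase that associates with plexins of the B class, rose by 1.12 ± 0.20 at -53.2 kb (adjusted p = 8.45e-04). Vav3, a guanine nucleotide exchange factor downstream of Eph receptors, rose by 1.65 ± 0.29 at 27.7 kb (adjusted p = 6.28e-04). Kalrn, another exchange factor, had the largest fall of the list, -1.83 ± 0.29 at -10.1 kb (adjusted p = 2.85e-04). These are the largest called differences of each gene. Other called regions went the other way: Met had 3 higher and 2 lower, Vav3 1 higher and 2 lower, and Kalrn 1 higher and 3 lower. Under ERKi at 24h, 3 genes had a higher and 3 a lower region, with 1 in both counts, and 4 and 5 of the 110 regions passed, 3.64% and 4.55%, against 3.53% and 3.98%. The 4 came to 0 without 24h replicate 1 or ERKi 24h replicate 3 and to 2 without ERKi 24h replicate 2, and the 5 to 2 or 3 without 24h replicate 1 or 3 or ERKi 24h replicate 1 or 2. Nrp2 was lower by -1.44 ± 0.28 at 64.6 kb (adjusted p = 0.00479), and the Kalrn region at -10.1 kb was higher by 1.16 ± 0.29 (adjusted p = 0.0215), a call lost without 24h replicate 1, 24h replicate 2, ERKi 24h replicate 2 or ERKi 24h replicate 3 (up to 0.109). At 4h of TGF-β, Vav2 and Chn2 were higher and 0 genes lower, with 3 of the 110 regions, 2.73%, against 3.62%, and under ERKi at 4h 0 genes were called.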

How the data were processed

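H3K27ac ChIP-seq peaks of 15 libraries were analysed; the matched RNA-seq and input samples were not used here. The authors aligned reads with Bowtie to mm9 and called peaks per library with MACS2, per the labels and the study's methods; the control used is not given in the sources used here. The deposited lists give fold enrichment over local background as a ratio, and -log10 p-values and q-values, with no read totals. Summit pileups were solved from the deposited fold enrichment and p-value (25 of 893719 peaks were not recovered within 0.005). Overlapping peaks (at least 1 bp) were merged, and annotated to the nearest protein-coding start site in NCBIM37. log2 pileups, centred on each library's median, were fitted for all 5 conditions with limma 3.58.1 in R 4.3.3, without a block, with Benjamini-Hochberg adjustment over 26934 regions. The fit was tested on simulated data with independent noise in each library. That test did not cover deviations shared by libraries of one replicate number. Distal peak numbers were compared with exact permutation tests over all splits of 3 against 3 libraries (Python 3.11.15, NumPy 2.4.6). SciPy 1.17.1 was used in solving the pileups.

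Replicate numbers paired the libraries: all 30 same-number pairs correlated above 0.1 after the condition means were removed (lowest 0.336, mean 0.581, against -0.284 for other numbers). The library number inside the peak names of ERKi 4h replicate 1 breaks the run of the other lists, and its title was used (its same-number correlations were at least 0.467, those with other numbers at most 0.206). The labels do not say whether replicates were separate cultures, so p-values measure the spread between these libraries. Regions were named where they were the largest called differences per direction, gene and promoter or distal class, or the gene of a subfamily with the most distal peaks, or all-or-none; the other called regions, and the uncalled ones with values, were added after their values were seen. Members and lists were chosen with earlier results of these data known. Alternatives were the block, quantile scaling, fold enrichment or -log10 p in place of pileup, other region and promoter definitions, stricter peaks, and leaving out each library.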

Additional observations from a re-analysis of the deposited data

How the results depend on the processing

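Counts of called member regions depended on the measure and on the model. For 24h, 4h, ERKi 24h and ERKi 4h in turn (24, 6, 12 and 0 regions), the replicate block gave 50, 24, 39 and 9, fold enrichment 8, 1, 1 and 0, -log10 p 15, 2, 4 and 0, regions with a peak in at least 6 libraries 83, 13, 28 and 1, and peaks with -log10 q of at least 10 gave 8, 1, 3 and 0. The change of the ERKi difference from 4h to 24h, with 0 regions, had 8 with the block and 0 without any 1 library. Leaving out 1 library gave 16 to 25, 2 to 6, 5 to 13 and 0 to 1 regions. For distal peak numbers without overlap (10, 3, 3 and 1 genes), the same sign within each replicate pair gave 16, 7, 10 and 6, and leaving out 1 library, which leaves fewer values to overlap, 11 to 16, 3 to 8, 6 to 13 and 1 to 5. Start sites of all annotated genes gave 5 genes for TGF-β and 1 for ERKi at 24h. For ERKi, promoters within 2500 bp gave 5 genes at 24h and 0 at 4h, the 20000 peaks with the highest -log10 p gave 0 at 24h, and a window of 50 kb gave 2 at 4h. For regions called in all or none (33, 9, 16 and 7), stricter peaks gave 16, 3, 8 and 0, requiring that a peak cover 0.5 of its region gave 3 at 4h, and leaving out 1 library 36 to 52, 11 to 13, 19 to 33 and 8 to 15.

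Of the 42 called values of single regions, 19 kept the call without any 1 library and 23 lost it without some library. The block kept the direction and call of 42, merging within 1000 bp of 41, quantile scaling of 39, regions in at least 6 libraries of 36, -log10 p of 17 and fold enrichment of 5. Direction was kept but the call lost for 0, 1, 3, 6, 25 and 16. Among those that had a region, stricter peaks kept 12 and lost 11. Fold enrichment reversed 21 (log2 differences). At 24h these were Sema4d at -6.1 kb (-0.13), Efna5 at 96.8 kb (-0.061), Ephb1 (-0.55), the Sema3c promoter (0.40), Sema5a (0.079), Plxnb1 (0.018), Epha2 (0.033 and 0.17) and Sema4f at 54.3, 38.2 and 8.7 kb (-0.23, -0.039 and -0.49). At 4h they were the Sema3c promoter (0.20), Sema3e at -37.7 kb (0.012) and Sema4d (-0.034). Under ERKi at 24h they were the Sema3c promoter (-0.18), Sema4g (-0.10), Sema6a (-0.15), the Efna5 promoter and the region at -1.4 kb (0.13 and 0.11) and Sema3e at -50.7 and -37.7 kb (0.36 and 0.11). Of the reversed values, Ephb1 and Sema4f at 8.7 kb passed the threshold at 24h (adjusted p = 0.0189 and 0.0407 in the limma fit of fold enrichment). The cause was not tested. Depth is known only through the peaks, so a region without a call can hold signal below the threshold of the caller.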
